A study of Drosophila melanogaster with 2 samples.

Results

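Repo is the homeodomain transcription factor that marks nearly all glia of the fly outside the midline. The 297 sites described here are the peaks of Repo-GFP binding that fell inside introns of long genes. They were taken from the optimal list of the study, which holds the peaks that passed a consistency threshold between replicates (irreproducible discovery rate, IDR). A peak was counted when its summit lay over 500 bp from every protein-coding transcription start site (TSS), in no annotated exon, and inside at least 1 protein-coding gene of 40 kb or more. The 297 sites made up 11.01% of the 2697 peaks on the list. A further 480 peaks lay in introns of shorter genes, 1487 lay within 500 bp of a protein-coding TSS and 329 were intergenic, with the rest in exons.

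The chromatin came from whole Drosophila melanogaster embryos collected 0 to 24 h after laying, with males and females pooled. The line stably carries a transgene that makes Repo with GFP at its C-terminus, and an antibody against GFP pulled down the sonicated chromatin. All samples share this genotype, tag and stage. The series has 1 group with 2 biological replicates, numbered 1 and 3, and the control library that the labels point to was not analysed here. Glia are a minority of the cells of such embryos, so a peak does not say in which cells the site was bound, and the tagged copy rather than the native protein was captured. The lists hold peak positions and scores but no read counts, so the depth is unknown.

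Introns of long developmental genes are a known home of enhancers, stretches of DNA that bind transcription factors and act on a promoter at a distance. In flies the first introns of a gene are often rich in such elements, and a large intron can also hold whole nested genes with promoters of their own. Homeodomain proteins bind short AT-rich sites. Repo is known in the embryo for switching on genes of mature glia downstream of the glial determinant Gcm.

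The sequence feature that set these sites apart from the DNA around them was a group of short words rather than the known Repo site. The run of 12 bases present in the most windows was CACTGAGAGAAA, found in 13 of 297 summit windows (4.38%, 201 bases each) and in 0 of 594 flanks, which are equally long windows centred 1000 bp away on each side of a summit. It was picked out for its count after the shorter words had been tested, so it carries no test. It was also present in 20 of 329 intergenic windows (6.08%), 12 of 480 windows of shorter introns (2.50%) and 10 of 1487 promoter windows (0.673%), and in 2.04% of the windows of the whole list. Of the weaker peaks in introns of long genes, which were on the pooled list but not on the optimal one, 23 of 3450 had it (0.667%). The copies are shown with 14 bases on each side (build dm6, sequence of the NCBI assembly, written 5′ to 3′ on the strand given), to let the shared run be compared with its surroundings. Capitals mark the shared run. The 11 copies shown are those on 2L, 3L, 3R and the X.
ush intron, chr2L:520735-520774, plus strand: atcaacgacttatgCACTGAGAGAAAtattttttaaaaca
Lim1 intron, chrX:8774160-8774199, plus strand: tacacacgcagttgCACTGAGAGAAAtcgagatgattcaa
pnt intron, chr3R:23326398-23326437, plus strand: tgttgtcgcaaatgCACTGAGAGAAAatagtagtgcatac
CG43759 intron, chrX:19018179-19018218, plus strand: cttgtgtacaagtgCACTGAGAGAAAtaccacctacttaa
Snoo intron, chr2L:7964686-7964725, plus strand: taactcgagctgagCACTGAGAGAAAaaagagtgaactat
cpo intron, chr3R:17943615-17943654, minus strand: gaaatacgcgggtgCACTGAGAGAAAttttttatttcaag
CG32264 intron, chr3L:3802813-3802852, plus strand: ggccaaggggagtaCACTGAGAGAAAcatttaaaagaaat
Antp intron, chr3R:6920252-6920291, minus strand: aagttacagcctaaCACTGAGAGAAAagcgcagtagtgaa
mew intron, chrX:13232661-13232700, minus strand: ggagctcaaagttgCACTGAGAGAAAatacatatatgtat
kirre intron, chrX:3025624-3025663, plus strand: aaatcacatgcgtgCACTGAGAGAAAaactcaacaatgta
rols intron, chr3L:12053960-12053999, minus strand: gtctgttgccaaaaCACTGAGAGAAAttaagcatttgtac

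The strongest summits are shown as well. The 4 strongest sites are printed as 201 bases centred on the summit (dm6, plus strand), because they carry the highest signal values below. Capitals mark any match, on either strand, to the 5 six-base words with the clearest excess over the flanks, of which CAGTGC was the first and which are given with their shares after the motifs. The ush window, the strongest of all, held 0 of these words, and the other windows held 1 of the 5 each.
ush, chr2L:480986-481186: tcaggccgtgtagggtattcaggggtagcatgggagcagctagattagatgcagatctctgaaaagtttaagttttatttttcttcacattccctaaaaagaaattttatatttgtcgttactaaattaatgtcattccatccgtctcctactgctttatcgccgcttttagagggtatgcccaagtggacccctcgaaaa
cno, chr3R:5215436-5215636: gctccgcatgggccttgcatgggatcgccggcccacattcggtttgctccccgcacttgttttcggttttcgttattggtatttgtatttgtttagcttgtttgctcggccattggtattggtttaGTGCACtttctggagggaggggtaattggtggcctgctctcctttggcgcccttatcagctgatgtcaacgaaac
Raf, chrX:2297635-2297835: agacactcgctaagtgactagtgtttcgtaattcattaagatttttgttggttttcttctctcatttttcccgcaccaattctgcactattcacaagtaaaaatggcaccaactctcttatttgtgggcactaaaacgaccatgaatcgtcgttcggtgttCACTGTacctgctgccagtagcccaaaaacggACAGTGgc
Tlk, chrX:3742115-3742315: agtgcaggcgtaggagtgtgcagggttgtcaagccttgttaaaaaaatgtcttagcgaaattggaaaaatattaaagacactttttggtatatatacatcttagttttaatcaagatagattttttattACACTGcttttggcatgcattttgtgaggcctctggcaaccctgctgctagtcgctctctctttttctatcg

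The binding was spread over many long genes and stacked in a few. Of the 461 protein-coding genes of 40 kb or more, 153 were hosts of at least 1 site (33.2%), out of 13945 protein-coding genes in the annotation. Each site was credited to a single host. At 8 sites another long gene also held the summit, as CG43739 did at the 2 sky sites. Such a gene was not counted as a host unless it hosted a different site. A single site was found in 75 hosts, 2 sites in 45 and 3 sites in 21. The 12 hosts with 4 or more sites held 69 of the 297. Hosts had a median length of 62.4 kb, against 59.0 kb for the 308 long genes that hosted none. Across the 461 genes the number of sites had a Spearman rho of 0.0814 with the length of sequence that could have held one, a description with no p.

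Raf, the kinase between Ras and MEK in the MAPK cascade, and CG1677 had the most sites, 9 each. The 9 Raf sites all lay in its second intron of 43.6 kb, and 7 of them sat in a row over 10.1 kb next to its TSS. The strongest Raf summit (position 2297735 of the X) had a signal value (the authors' score per peak, on a scale not given in the sources used here) of 633 on the optimal list, 298 in replicate 1 and 336 in replicate 3. The site next to it (position 2296453) had 148 on the optimal list, 32.8 in replicate 1 and 156 in replicate 3. The replicates ranked the first of these alike, 34 of 30000 peaks in replicate 1 and 40 in replicate 3. They ranked the second far apart, at 5165 in replicate 1 and 233 in replicate 3. The other 5 sites of the row had signal values from 129 to 221.

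CG1677, a gene whose role is not given here, held its 9 sites in a single second intron of 73.9 kb, with signal values from 88.9 to 227. Each had its nearest protein-coding TSS in another gene that lies inside or beside the intron, which were unc-119, brk, Atg5, Dok, CG42780 and CBP. None of the 9 was nearest to a TSS of CG1677 itself. Kirre, an immunoglobulin-family adhesion protein of myoblast fusion, had 7 sites spread over 310 kb of its 394 kb. The highest kirre site had a signal value of 328 (165 in replicate 1, 161 in replicate 3), and the others ranged from 88.2 to 187. Only 3 of the 7 were nearest to a TSS of kirre.

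Transcription regulators filled much of the rest of the top of the host list. Ush, the Friend-of-GATA cofactor U-shaped, held 5 sites, all in its first intron of 49.1 kb. The strongest lay at position 481086 of 2L, had a signal value of 1698 (822 in replicate 1, 878 in replicate 3) and was the second highest peak of the whole list. Its nearest TSS, at 1398 bp, belonged to cbt, a neighbouring zinc finger gene, and not to ush, whose own nearest TSS was 4866 bp away. The remaining ush sites had 103 to 190. Hr4, an orphan nuclear receptor of the ecdysone response, had 5 sites, and 3 of them were high at 294, 317 and 372, while the other 2 had 85.8 and 114.9. Eip75B, another ecdysone-responsive nuclear receptor, had 5 sites within a narrow range of 119 to 180. Sbb (scribbler, a corepressor) had 7 sites between 99.8 and 236. Shn, a zinc finger cofactor of BMP signalling, and jing, a zinc finger factor known in glia and trachea, had 4 sites each, with maxima of 171 and 105.

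The other hosts with many sites had varied roles. Tlk (tousled-like kinase) had 5 sites, led by 612 (287 in replicate 1, 327 in replicate 3), and its other 4 ran from 84.5 to 210. Rdx, the Cullin-3 adaptor of Hedgehog signalling known as roadkill, had 5 sites between 85.1 and 273. InR, the insulin receptor, had 3 sites with signal values of 399, 140 and 98.0, the highest 644 bp from one of its TSSs. Px, needed for wing vein patterning, had 4 sites of at most 137. Gpp, the H3K79 methyltransferase, and prage had 3 sites each, with maxima of 247 and 262. InR, prage and gpp are named because they had the highest maxima of the 21 hosts tied at 3 sites.

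**Figure D1:**
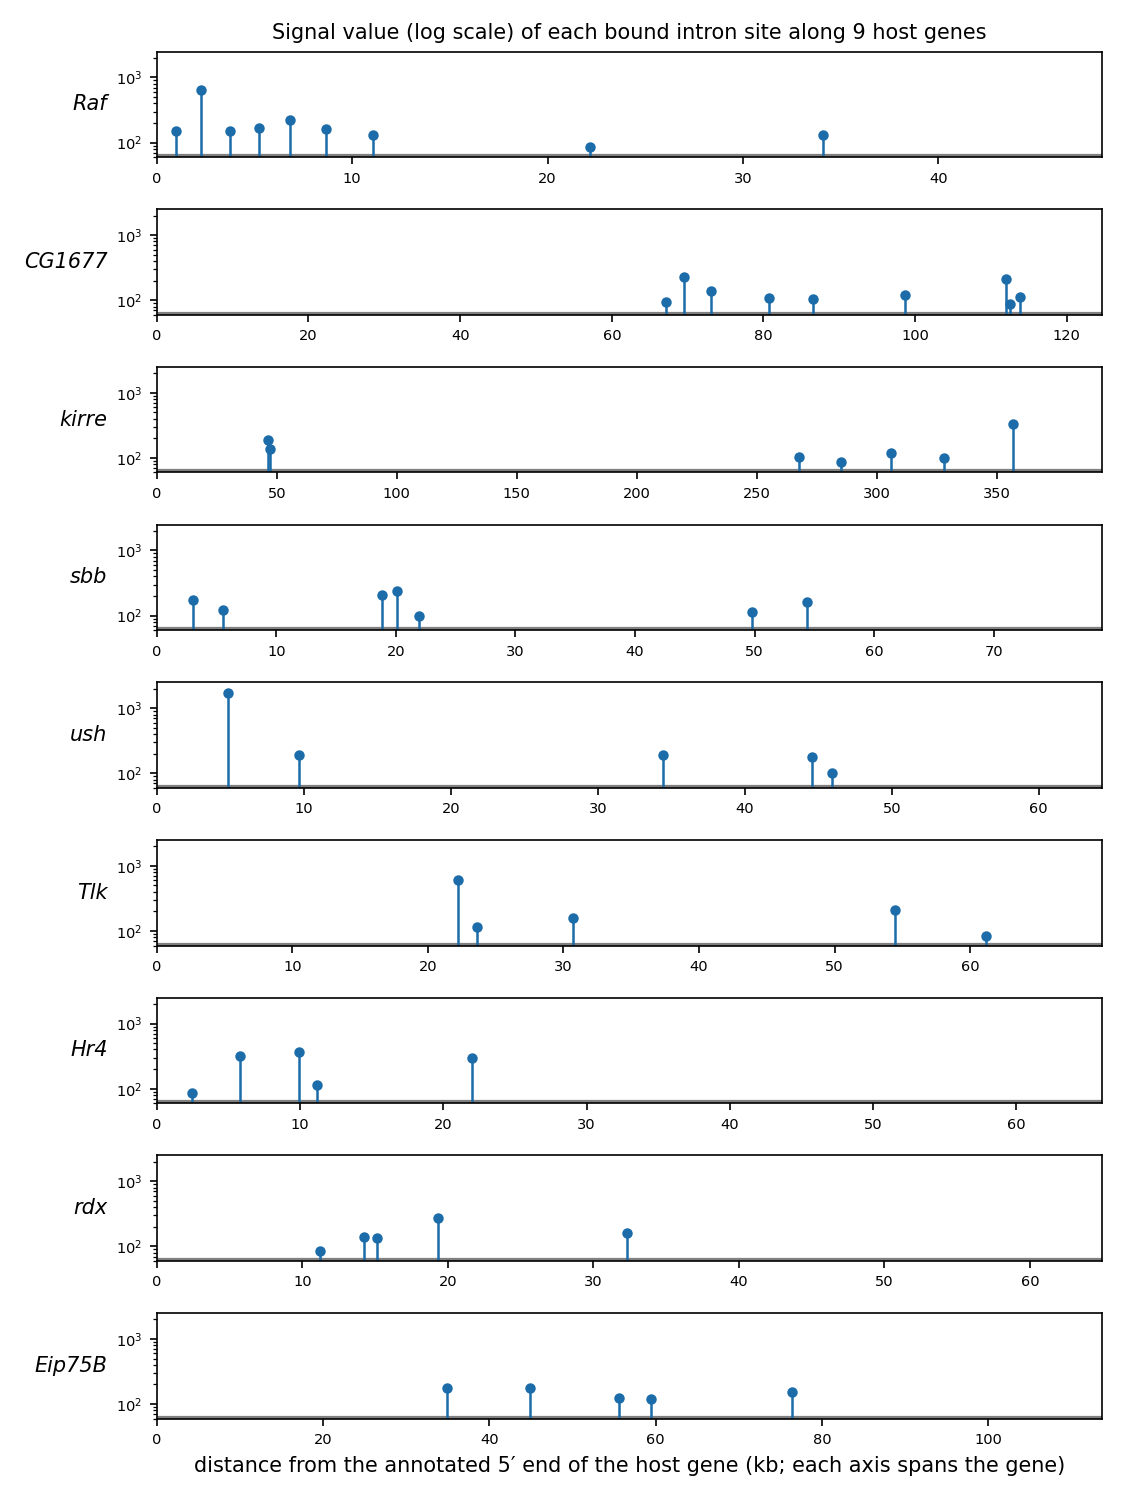
Sites along the 9 hosts with most sites, each panel running from the annotated 5′ end of the gene to its 3′ end (kb), with the signal value on the optimal list on a log axis. The 7 Raf sites near its 5′ end, the single ush site at 1698 and the 3 high Hr4 sites stand out, and the CG1677 sites all lie in the 3′ portion.

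Several of the strongest sites were alone or nearly so in their gene. Cno (canoe, an adherens junction protein) had the second highest site, with 643 on the optimal list, 285 in replicate 1 and 357 in replicate 3, and another site of 160 in the same first intron. Mub, a KH-domain RNA-binding protein, had 1 site of 425, norpA (phospholipase C beta) had 1 of 413, and CG34417 had 1 of 412. Beat-Ib, an immunoglobulin-family gene, had 1 site of 357 that lay 51157 bp from its own TSSs and 5610 bp from that of CG13244. CG33158 had a site of 328 that was nearest to the TSS of aos, the secreted EGF receptor antagonist argos, at 3117 bp. The 12 highest sites were high in both replicates, at rank 208 or better in replicate 1 and at rank 214 or better in replicate 3.

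Hosts were also counted by role. The lists were written from textbook roles by symbol, with earlier results of these data known. They are not complete, since 85 of the 153 hosts are in none of them. Shn and jing, described above with the transcription regulators, are not in the list of regulators. In the list of regulators, 27 of 42 long genes were hosts (64.3%, Wilson 95% interval 49.2 to 77.0), against 33.2% of all long genes, and they held 56 sites, led by ush, Hr4 and sbb. Among signalling receptors, ligands and kinases 12 of 23 were hosts (52.2%, 33.0 to 70.8), led by Raf, norpA and InR. RNA-binding genes had 6 hosts of 13 (46.2%, 23.2 to 70.9), led by brat, shep and Rbfox1. Brat, a translational repressor of neural stem cell growth, reached 312.

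Among the lists of cell surface, cytoskeletal and neuronal effector genes, only that of ion channels had its whole interval under the share of all long genes. Cell adhesion and axon guidance had 13 hosts of 48 (27.1%, 16.6 to 41.0), with kirre, caps and sli highest. Sli, the Slit ligand of midline guidance, had 1 site of 165. The cytoskeleton, muscle and junction list had 5 hosts of 17 (29.4%, 13.3 to 53.1), led by cno, cv-c and shot. Ion channels, receptors and synaptic proteins had 5 of 31 (16.1%, 7.09 to 32.6), with KCNQ, Elk and dnc highest. These shares describe the lists and were not tested against each other or against the share of all long genes. The lists overlap in part, and their median gene lengths ran from 54.5 to 122 kb.

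**Figure D2:**
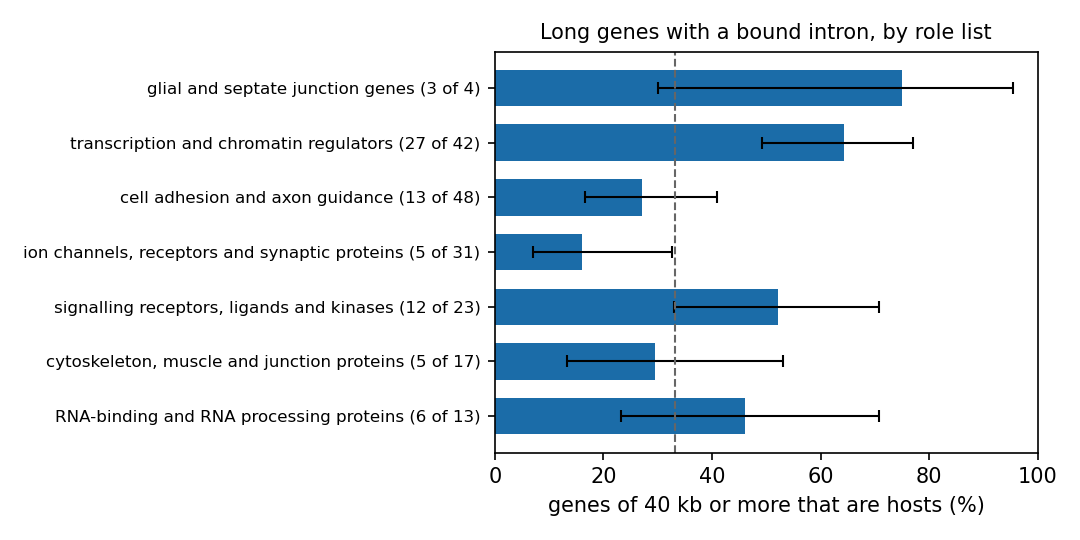
Share of the long genes of each role list that were hosts of at least 1 site (%), with Wilson 95% intervals as bars and the share over all 461 long genes as the dashed line. The list of transcription and chromatin regulators lies above the line with its whole interval, and that of ion channels, receptors and synaptic proteins below it. The lists are not complete, and no share was tested against the line.

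Of the glial list, 4 genes were 40 kb or longer and 3 of them were hosts (75.0%, 30.1 to 95.4). Pnt, the Ets factor Pointed that acts in glia and in EGF receptor signalling, had 3 sites in the third intron. They had signal values of 168 (74.4 in replicate 1, 93.6 in replicate 3), 99.3 (49.8 and 36.9) and 86.5 (50.3 and 38.3), so 1 of the 3 was above the median of all sites. Nkd, a feedback inhibitor of Wnt signalling, had 1 site of 160 in its first intron, 20436 bp from its nearest TSS. Trol, the fly perlecan, had 1 site of 111 in its second intron. Pros, the homeodomain factor Prospero, had 0 sites.

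Hosts were also more often bound at a promoter than the other long genes. An optimal peak lay within 500 bp of 1 of the gene's own TSSs in 58 of 153 hosts (37.9%, Wilson 95% interval 30.6 to 45.8), against 40 of 308 long genes that hosted none (13.0%, 9.68 to 17.2). The odds ratio was 4.09 (Fisher's exact test, two-sided, p = 2.79e-09), a comparison added after the site counts were known. The test treats genes as independent, although some long genes overlap. CG43739, with the same coordinates as the host sky, was counted among the 308, and both counted as bound at a promoter. Sbb, rdx, Eip75B, shn, px, InR and prage had both, while Raf, CG1677, kirre, ush, Tlk, Hr4, jing and gpp, the other hosts described above for their number of sites, had bound introns and no optimal peak at their own TSSs.

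The sites lay in a first intron less often than those in shorter genes, where first introns are also more of the sequence. Of the sequence that met the position rule, sampled every 200 bases, first introns made up 19.7% in long genes, against 43.5% in shorter genes. The summit lay in the first intron for 83 of 297 sites (27.9%, 23.1 to 33.3), against 329 of 480 sites in shorter genes (68.5%, 64.3 to 72.5). The odds ratio was 0.178 (Fisher's exact test, two-sided, Benjamini-Hochberg adjusted over 8 tests, p = 7.83e-28). Intron numbers are those of the host's transcript with the largest span. Counting a site as first-intron when any transcript makes it so gave 177 of 297 (59.6%), against 385 of 480 in shorter genes (80.2%). These and all p-values that follow treat peaks as independent, although peaks of 1 gene share that gene, and the intervals cover counting error only.

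By the transcript with the largest span, the second intron was the most frequent home of the sites, with 128 of 297 (43.1%, 37.6 to 48.8). Sites of Raf, CG1677, sbb, Tlk and rdx were among them. Counting a site as first-intron when any transcript makes it so gave 177 of 297 (59.6%). That rule favours the first intron, and second and later introns were not counted in the same way. By the transcript with the largest span, second introns held 1126 of the 3450 weak peaks in introns of long genes (32.6%, 31.1 to 34.2). In shorter genes, second introns held 108 of the 480 sites (22.5%, 19.0 to 26.4). The odds ratios of the sites were 1.56 against weak peaks (adjusted p = 0.000323) and 2.61 against shorter genes (adjusted p = 4.43e-09, Fisher's exact test, two-sided, over 2 tests added after the counts were seen). These 2 tests were not repeated with any transcript or with 1 peak per host, and Raf and CG1677 gave 9 sites each. For first introns the weak peaks had 948 of 3450 (27.5%), which the test did not separate from the 27.9% of the sites (odds ratio 1.02, Fisher's exact test, two-sided, adjusted p = 0.945). With first introns of any transcript the share was 8.29 percentage points higher in the sites than in weak peaks (Fisher's exact test, two-sided, adjusted p = 0.0171). Second introns held 43.1% of the sites and later ones 29.0%, against 28.0% and 52.3% of the sampled sequence of long genes. In shorter genes second introns made up 25.7% of that sequence and later ones 30.8%.

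**Figure D3:**
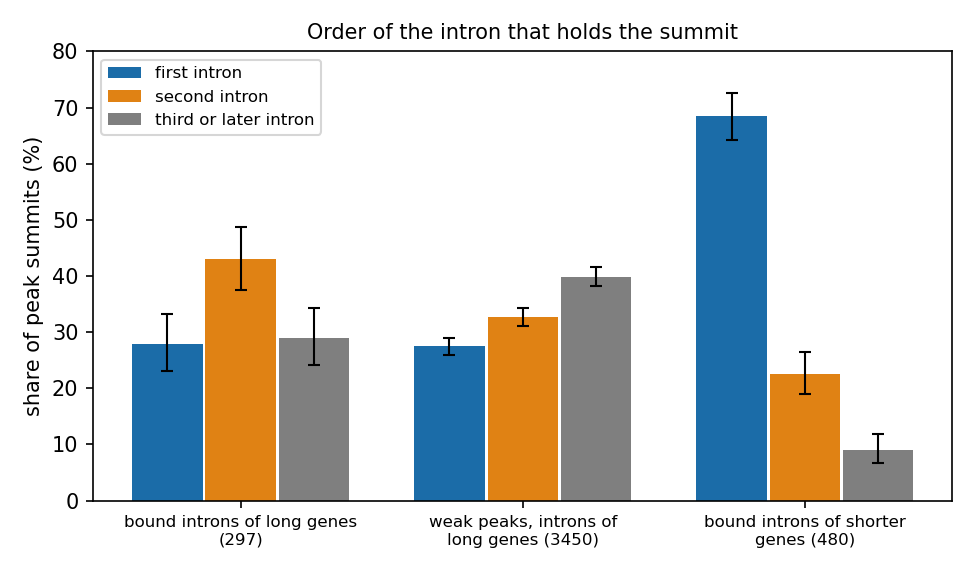
Share of summits (%) in first, second and later introns for the 297 bound introns of long genes, the weak peaks in the same kind of intron and the bound introns of shorter genes, with Wilson 95% intervals. Intron order is that of the host's transcript with the largest span. By that order the second intron leads in long genes, at 43.1%, and the first intron in shorter genes, at 68.5%.

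The host intron had a median length of 31.1 kb (range 0.823 to 126 kb), a size that the 40 kb minimum of the rule favours, and 265 of the 297 sites (89.2%) lay in an intron of 10 kb or more. The median signal value was 123 in first, 124 in second and 119 in later introns. The distance to the nearest protein-coding TSS had a median of 4848 bp and ran from 515 to 61684 bp. It was at most 2 kb for 73 sites (24.6%) and over 20 kb for 35 (11.8%). For 220 sites (74.1%) that TSS belonged to the host, and for the other 77 (25.9%) to another gene, as at CG1677 and at the strongest ush site.

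At the edges of the rule, the sites just inside the distance threshold lay 515, 518 and 525 bp from a TSS, in CG1677, cpo and sick, with signal values of 139, 108 and 208. Those just outside lay 490, 490 and 482 bp away, in lola, RapGAP1 and tun, with 127, 164 and 126. The shortest host was RhoGAP19D at 40.7 kb, with 3 sites of 178, 86.9 and 85.9. The 3 bound intron sites just outside the length threshold were all in NFAT at 39.8 kb, with 566, 319 and 98.6.

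Per length of sequence, long introns held fewer peaks than shorter ones, on the optimal list and among weak peaks alike. The sites amounted to 10.7 per Mb of the 27.7 Mb that met the position rule in long genes, against 23.0 per Mb of 20.9 Mb in shorter genes. The 27.7 Mb includes 1795 kb in the gene Myo81F, which had 0 sites. Other large stretches also had 0 sites, such as 348 kb in DIP-lambda and 335 kb in CG17684. The 309 kb in kirre held 7. Weak peaks amounted to 125 per Mb in long genes and 225 per Mb in shorter ones. The ratio of long over shorter introns was 0.467 for optimal and 0.555 for weak peaks, a description with no test. As a share of all peaks, introns of long genes held 11.01% (9.89 to 12.2) of the optimal list, against 12.6% (12.2 to 13.0) of 27302 weak peaks, 3450 of them. The odds ratio was 0.856 (Fisher's exact test, two-sided, adjusted p = 0.0389). The call was lost among the 1348 peaks of highest signal, of which 152 lay in long introns (Fisher's exact test, two-sided, adjusted p = 0.244).

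Sites in long introns had fewer neighbours than sites in shorter introns. Another optimal summit lay within 5 kb for 110 of 297 (37.0%, 31.7 to 42.7), against 263 of 480 in shorter genes (54.8%, 50.3 to 59.2), an odds ratio of 0.485 (Fisher's exact test, two-sided, adjusted p = 6.08e-06). Among the 1348 peaks of highest signal the difference was -9.32 percentage points and no longer past the threshold (Fisher's exact test, two-sided, adjusted p = 0.166). The share was 39.1% at promoters, 38.6% at intergenic sites and 42.0% over the whole list, which were not tested against the sites. Promoter peaks count as neighbours here, and sites in shorter introns lay nearer to a protein-coding TSS (median 1859 bp, against 4848 bp). The part of that distance in the neighbour shares was not tested. Chaining sites at gaps of up to 5 kb gave 247 groups, of which 211 were single sites and 36 held 2 or more. The largest was the row of 7 in Raf over 10.1 kb. The next were 4 sites in Hr4 over 8.72 kb, with signal values from 85.8 to 372, and 4 in rdx over 8.05 kb, from 85.1 to 273.

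The median signal value of the sites was close to that of other classes. The median signal value was 123 (quartiles 99.8 and 168, range 84.1 to 1698), against 126 in introns of shorter genes and 123 at promoters. The 1348 peaks of highest signal held 152 of the 297 (51.2%, 45.5 to 56.8), against 248 of 480 in shorter introns (51.7%, 47.2 to 56.1) and 747 of 1487 at promoters (50.2%, 47.7 to 52.8). Neither difference passed (Fisher's exact test, two-sided, adjusted p = 0.945 for both), at differences of -0.488 and 0.943 percentage points. Each interval is far wider than the difference, so a small difference was not detectable. Higher up, the 500 strongest peaks held 44 of the 297 (14.8%), against 91 of 480 in shorter introns (19.0%) and 290 of 1487 at promoters (19.5%). Neither of these differences passed (Fisher's exact test, two-sided, adjusted p = 0.145 and 0.122, 2 tests added after the counts were seen). The 100 strongest held 7 of the sites and 59 promoter peaks.

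Both replicates contained every site. All 297 summits lay in a peak of the full list of each replicate, as did 2681 of the 2697 summits of the whole optimal list. That list was chosen for consistency between replicates, so this is not a separate result about the sites. Of the 297, 208 (70.0%, 64.6 to 75.0) lay among the 2697 highest peaks of both. The shares were 346 of 480 (72.1%, 67.9 to 75.9) in shorter introns and 1037 of 1487 (69.7%, 67.4 to 72.0) at promoters, and neither differed past the threshold (Fisher's exact test, two-sided, adjusted p = 0.945 for both). Signal values had a median of 58.9 in replicate 1 (26.7 to 822) and 65.0 in replicate 3 (28.0 to 878). Across the 297 sites the replicates had a Spearman rho of 0.60, a description of peaks chosen for being found in both.

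**Figure D4:**
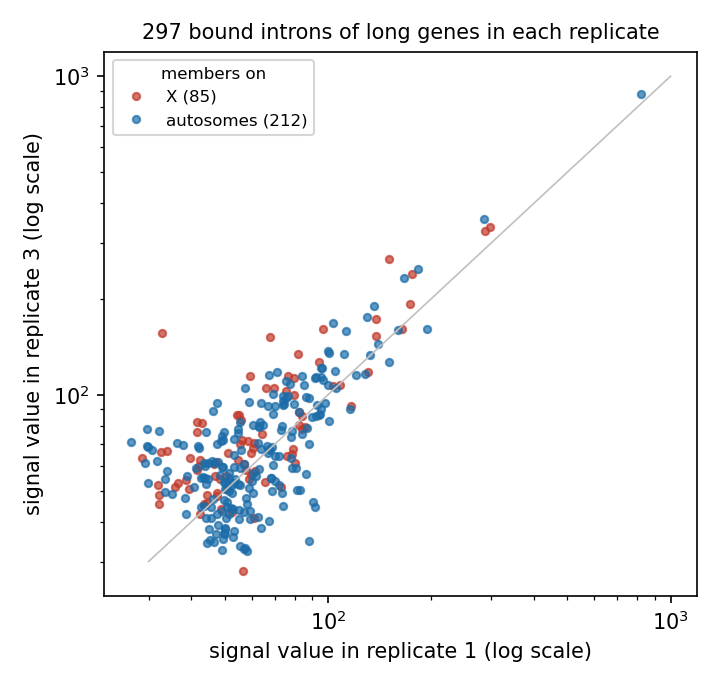
Signal value of each of the 297 sites in replicate 1 and replicate 3, both on log axes, with the line of equal values. The few strongest sites lie near the line, the bulk between 30 and 100 scatters widely, and sites on the X are drawn apart from those on the autosomes.

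The X chromosome held a larger share of the sites than of the weak peaks. Sites on the X numbered 85 of 297 (28.6%, 23.8 to 34.0), against 628 of 3450 weak peaks in introns of long genes (18.2%), an odds ratio of 1.80 (Fisher's exact test, two-sided, adjusted over 5 chromosome arms, p = 0.000143). None of the 4 autosomal arms passed, with adjusted p from 0.113 to 0.722. Hosts on the X numbered 37, or 40.7% of the long genes there, against 30.2 to 33.0% on the 4 long autosomal arms, which was not tested. Raf, CG1677, kirre, Tlk and Hr4 held 35 of the 85. Counting 1 peak per gene ended the call, at 37 of 153 hosts against 81 of 380 genes with a weak peak (a difference of 2.87 percentage points, Fisher's exact test, two-sided, adjusted p = 1). Leaving out replicate 3 also ended it, at a difference of 5.80 points (Fisher's exact test, two-sided, adjusted p = 0.0941). Replicate 3 had a median of 1.18 times the signal of replicate 1 at sites on the X and 1.06 times on the autosomes. The part of that gap in the count was not tested. The 28.6% of the sites was also above the X share of 21.5% in bound introns of shorter genes (adjusted p = 0.0282) and of 14.5% at bound promoters (adjusted p = 8.56e-08, Fisher's exact test, two-sided, over 4 tests). Within shorter introns, the 21.5% of bound sites was likewise above the 17.4% of 4683 weak peaks on the X (Fisher's exact test, two-sided, adjusted p = 0.0282). Within promoters, the 14.5% of bound sites was below the 17.7% of 7221 weak peaks (Fisher's exact test, two-sided, adjusted p = 0.00498). All comparisons of chromosomes were added after the counts were seen.

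None of the known transcription factor sites searched for was called at these summits. The site reported for Repo, CAATTA, was present on either strand at 58 of 297 summits (19.5%, 15.4 to 24.4), against 119 of 594 flanks (20.03%), and in 17.4% of the windows of the whole list. None of 14 motifs (0%) passed against the flanks, and 0 had an unadjusted p under 0.05 (Fisher's exact test, two-sided, Benjamini-Hochberg over 14). The homeodomain words TAATTA and TAATGA, which share the core TAAT with the reverse complement of CAATTA, had shares of 11.8% and 15.5% at summits, against 13.5% and 13.8% in flanks, and of 12.1% and 11.5% of all 2697 windows. The Gcm site ATRCGGGY was in 0 of 297 windows, which allows a share of up to 1.01%, and in 3 flanks and 0.742% of the list. The promoter-associated Dref site TATCGATA was likewise in 0 of 297 windows and 3 flanks, against 4.93% of the list, and the M1BP site GGTCACAC in 1 window and 3 flanks, against 3.11% of the list.

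None of the remaining motifs passed against the flanks either. The AP-1, Ets and GATA sites were in only 7, 1 and 3 summit windows, so a difference there could have been missed. The Snail E-box CACCTG was found in 7.41% of windows at summits, 5.89% in flanks and 6.04% of the list, the Zelda site CAGGTA in 5.39%, 3.54% and 4.12%, and the GAGA factor site GAGAGAG in 6.40%, 5.56% and 5.30%. The E-boxes CAGCTG and CACGTG had shares of 7.41% and 3.37% at summits, against 8.59% and 2.19% in flanks, and of 10.6% and 3.04% of the list. The Ets site CCGGAAG was in 0.337%, 0.673% and 0.853%, and the AP-1 site TGAGTCA in 2.36%, 1.01% and 2.11%. The GATA site AGATAAG was in 3 windows (1.01%) and in 2.69% of flanks and 2.08% of the list.

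Against the 480 sites in shorter introns 0 of the 14 motifs (0%) passed and 1 had an unadjusted p under 0.05. That was the GATA site, in 3 of 297 windows of long introns (1.01%, 0.344 to 2.93), against 21 of 480 of shorter introns (4.38%), with an unadjusted p of 0.00911 and an adjusted p of 0.127 (Fisher's exact test, two-sided). CAATTA was in 19.5% of the windows in long introns and 17.5% in shorter ones (Fisher's exact test, two-sided, adjusted p = 1).

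A count of all 2080 six-base words, each taken with its reverse complement, did find differences between summits and flanks. More frequent at summits were 20 words (0.962%) and less frequent 11 (0.529%) at an adjusted p under 0.05 (Fisher's exact test, two-sided, Benjamini-Hochberg over all words). CAGTGC led, in 61 summit windows (20.5%), against 33 flanks (5.56%), an odds ratio of 4.39 and an adjusted p of 8.58e-08. ACACTG had 20.9% at summits and 7.07% in flanks, CACTGA 19.9% and 6.57%, GTGCAC 12.8% and 3.20%, and ACAGTG 21.2% and 8.75%, with adjusted p from 7.34e-06 to 0.00018. These 5 words overlap one another when read on both strands and are not 5 separate sites. With windows of 50 bp to each side, 4 of the 5 lost their call, with adjusted p of 0.163 for CAGTGC, 0.0985 for both ACACTG and GTGCAC, and 0.379 for ACAGTG, and CACTGA kept it (Fisher's exact test, two-sided, adjusted p = 0.0161). With genes of at least 60 kb ACAGTG lost its call (Fisher's exact test, two-sided, adjusted p = 0.0626). At least 1 of them was present at 172 of 297 summits (57.9%), against 129 of 594 flanks (21.7%).

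Of the words that were less frequent at summits, CCACAA had 6.73% at summits and 16.2% in flanks, ACCGAG 0.337% and 5.05%, CGGCAG 3.03% and 10.4%, AACTGG 4.38% and 11.95%, and CCGGCA 1.68% and 7.24% (adjusted p from 0.0098 to 0.0243, Fisher's exact test, two-sided). GC content averaged 37.6% at summits of long introns and 40.3% in their flanks. The same direction held in shorter introns, with 37.9% at summits and 41.3% in flanks, and at promoters, with 40.2% and 44.7%. Flanks were not held to the position rule, and sites in long introns lay as near as 515 bp to a TSS and 100 bp to an intron end. The part of exon or promoter sequence in these differences was not tested.

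The frequent words were counted by distance from the summit. Per kb of sequence their occurrences numbered 2.96 within 25 bp of the summits of long introns, 6.53 at 50 to 75 bp, 6.87 at 75 to 100 bp, 5.79 at 100 to 125 bp and 4.04 at 125 to 150 bp. Beyond 200 bp they levelled at 1.99, and at 1 to 2 kb they were 1.98. The words had been chosen by comparing the 100 bp to each side with the flanks centred 1000 bp away. Values within 100 bp are therefore not free of that choice, and those at 1 to 2 kb only in part. The stretches compared next lie outside both for the same site. Between 101 and 150 bp from the summit at least 1 word was found at 88 of 297 sites (29.6%), against 45 (15.2%) between 501 and 550 bp, an odds ratio of 2.36 (Fisher's exact test, two-sided, adjusted over 5 classes of peaks, p = 7.93e-05).

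The same words were counted at the other classes of sites. Occurrences per kb at the summits of shorter introns were 3.42 within 25 bp and 6.58 at 75 to 100 bp, and at intergenic summits 3.71 and 5.96. At promoters they were 4.68 within 25 bp and 3.69 at 75 to 100 bp. Weak peaks in introns of long genes had 3.15 and 2.64. In the ring of 101 to 150 bp, 22.1% of shorter introns, 26.4% of intergenic sites, 21.5% of promoters and 18.6% of weak peaks held a word, against 14.4%, 13.98%, 15.8% and 13.2% of the same peaks farther out (adjusted p from 6.41e-09 to 0.00255).

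**Figure D5:**
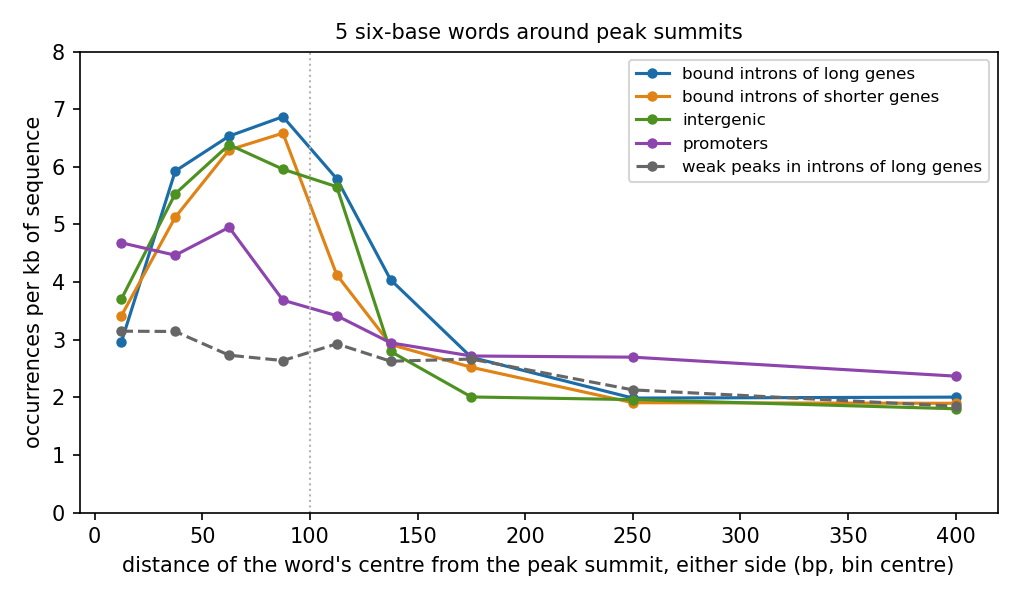
Occurrences per kb of the 5 six-base words by distance from the summit (bp, both sides together) in 4 classes of optimal peaks and in weak peaks. In long introns the words peak at 75 to 100 bp at 6.87 per kb, against 2.96 per kb within 25 bp of the summit, and the dotted line marks the 100 bp within which they were chosen.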

How the data were processed

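Peaks were deposited by the authors as narrowPeak lists, 30000 peaks for each replicate and for the pooled replicates, and an optimal IDR list of 2697. Column 7 is the authors' deposited signal value, whose scale, like the aligner, peak caller and IDR threshold, is not given in the sources used here. The dm6 lists were used, and not the dm3 lists, with the Ensembl release 115 annotation and NCBI sequence of that build, and 0 peak ends passed a chromosome's end. Weak peaks were pooled peaks whose summit lay in no optimal peak. Where 2 long genes held a summit (8 sites), the longer was the host. Sky and CG43739 are of equal length, and sky was taken there by order of gene identifier.

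The sites, gene lists, motifs and tests were chosen with earlier results of these data known. Shares were compared with Fisher's exact test (scipy 1.17.1, two-sided) at a threshold of 0.05. Named hosts were the 15 with most sites (ties by highest signal), those of the 12 highest sites and of the 3 largest clusters, and long genes of the glial list, with the 3 highest of each other role list. The gene ct, put in the RNA-binding list by mistake, was taken out of it, and 7 of 545 symbols found no match in the annotation and were left out. Leaving out a replicate meant taking the 2697 highest peaks of the other one. The labels call the replicates biological.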

Additional observations from a re-analysis of the deposited data

How the results depend on the processing

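The number of sites was 304 without replicate 1 and 287 without replicate 3, and those lists contained 85.2% and 83.2% of the 297 summits of the optimal list. It was 152 among the 1348 peaks of highest signal and 175 with genes of at least 60 kb. Differences in percentage points that changed sign had missed the threshold both ways. For first introns against weak peaks, genes of 60 kb gave -1.44. For the share among those 1348 peaks against shorter introns, genes of 30 kb gave 0.286 and 1 peak per host 8.26. Against promoters, single replicates gave -4.14 to -1.94, genes of 60 kb -0.521 and a TSS distance of 1000 bp -0.0131. For peaks high in both replicates against shorter introns, the 1348 highest gave 1.66 and 1 peak per host 2.86. With 1 peak per host, the strongest one by construction, long introns exceeded promoters by 15.1 (highest signal) and 10 points (both replicates). Both passed the threshold, but all 1487 promoter peaks were kept, not 1 per gene. The setting itself thus favours long introns, and nothing is concluded from it. First introns of any transcript gave 8.29 against weak peaks, past the threshold. The 1348 highest peaks lost the calls on long-intron share (-1.36) and on neighbours (-9.32). The X share was 5.80 to 12.96 points higher without 1 replicate, losing its call without replicate 3, and lost it with 1 peak per host (2.87), settings added after the data were seen. Words past the threshold numbered 31, against 17 to 18 without 1 replicate, 10 among the highest peaks, 63 at 30 kb, 10 at 60 kb and 1 with windows of 50 bp. Windows of 200 bp called 1 motif against flanks (TAATTA, lower at summits) and windows of 50 bp 1 against shorter introns (GATA, lower). The cause was not tested. No paired analysis was possible because the series has 1 group. Unknown depth limits what absence of a peak can show.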
